A study of Mus musculus with 4 samples.

Results

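The transcripts of 10 genes of the Hedgehog signaling pathway were examined in the E13 telencephalon of mice labelled as conditional knockouts of STING in the neural lineage and of WT mice. The genes were taken from the pathway's core by name, and all 10 (Shh, Ptch1, Smo, Gli1, Gli2, Gli3, Sufu, Hhip, Boc and Cdon) were found among the 27293 genes of the count table. RNA-seq had been carried out on 4 libraries of telencephalic tissue from C57BL/6 embryos at embryonic day 13. Of these, 2 carried the genotype label WT and 2 the label STINGf/f;Nestin-Cre (cKO), in which Cre driven by the Nestin promoter is meant to delete floxed STING in neural progenitors and their progeny, while cells of other origin in the tissue are not its target. The title of WT 2 bears the abbreviation nes, unlike that of WT 1, and whether that embryo carried Nestin-Cre without the floxed alleles is not given in the sources used here. Nothing states that the libraries of a group came from separate embryos or litters, so the p-values below measure the spread between these libraries only.

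Hedgehog signaling starts when the secreted ligand Sonic hedgehog (Shh) binds Patched 1 (Ptch1) and so frees the membrane protein Smoothened (Smo) to act in the primary cilium. Smo then relieves the hold of Sufu on the Gli transcription factors, of which Gli3 works mainly as a repressor, Gli2 mainly as an activator, and Gli1 is both an activator and a target gene. Ptch1 and Hhip, which bind the ligand and damp the response, are targets as well, so their transcripts are commonly read as a gauge of signaling. In the embryonic telencephalon Shh comes from ventral tissue and promotes ventral fates, whereas Gli3 protects the dorsal cortex.

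The libraries held 17209654 to 18533391 reads on genes. STING itself, listed as Tmem173, had 20 and 19 reads in WT 1 and WT 2 and 18 and 22 in cKO 1 and cKO 2. With a log2 fold change of 0.02 (standard error 0.45), the gene-level count did not tell the genotypes apart and does not show the deletion. Reads from the floxed part alone were not analysed here. Levels of tissue markers differed between libraries. WT 1 had the most choroid plexus transcripts (9 markers summing to 52.2 CPM, reads scaled to a common library size, against 6.61 to 10.3 in the other libraries, with Folr1 at 0 in WT 2, Kcnj13 at 0 in cKO 2 and Cldn2 at 0 in all but WT 1), and also the most for cortical hem (6 markers, 55.0 against 16.3 to 21.4 CPM) and meninges and mesenchyme (9 markers, 301 against 46.6 to 83.4 CPM). cKO 1 had the least for ventral telencephalon (13 markers summing to 781 CPM, against 1150 to 1220 CPM elsewhere, none at 0). Cortical progenitor markers summed to between 1480 and 1680 CPM, and cortical neuron markers to between 3880 and 4620 CPM, so the tissue held dorsal and ventral telencephalon in every library. The neuron sum is weighted by Tubb3, which was highest in cKO 2. The median level of the 5 neuron markers was lowest there, at 0.81 of the mean over the libraries, against 0.93 to 1.14 elsewhere. The sums ran from 30.3 to 41.1 CPM for diencephalon, from 97.2 to 146 CPM for endothelium, from 465 to 1060 CPM for blood, and from 1040 to 1280 CPM for proliferation. Reads of 4 Y-linked genes (Uty, Ddx3y, Kdm5d, Eif2s3y) summed to 0 in WT 2 and to 1848 to 3002 elsewhere. WT 1 and WT 2 therefore did not come from the same embryo, and sex was not balanced between the groups. In bulk tissue, fewer cells of a type and less RNA per cell cannot be told apart.

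To ask whether the Hedgehog pathway differed between the genotypes, each gene was compared between the 2 cKO and the 2 WT libraries. None of the 10 members passed the thresholds that the study had used, at least 2-fold and an unadjusted p of at most 0.05 (edgeR quasi-likelihood test), which 0.811% of the 16145 genes tested did. A single member, Ptch1, had an unadjusted p of at most 0.05, as did 1.23% of all genes tested. No member had an adjusted p under 0.05 (Benjamini-Hochberg over all genes, 0.9999 for each member), and neither did any other gene (0%). DESeq2 gave the same counts for the members, with 0 at the study's thresholds, 1 at an unadjusted p of at most 0.05 and 0 after adjustment. In 2 members (Shh and Ptch1) the highest cKO library was under the lowest WT library, a pattern shown by 10.8% of all genes tested. In 3 members (Gli2, Sufu and Boc) the order was the opposite, as in 11% of all genes. The 5 others overlapped. The median log2 fold change was 0.07 for the members and -0.009 for all genes, and the median size of the change was 0.21 and 0.13 respectively.

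**Figure D1:**
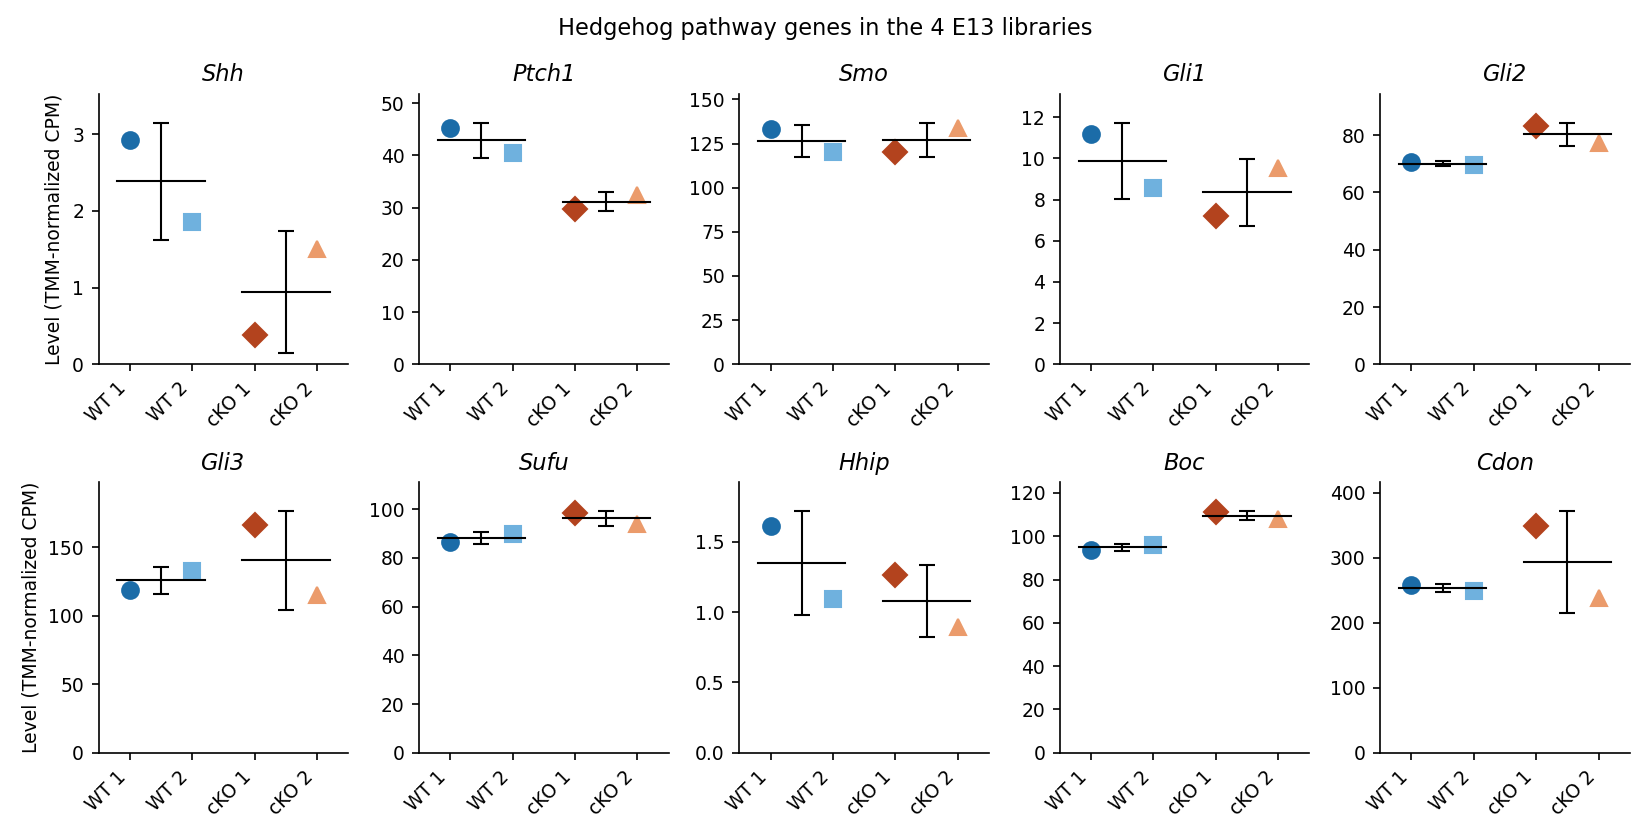
Level of each Hedgehog gene in the 4 libraries, as TMM-normalized CPM on an axis that starts at 0 and differs between panels. Points are libraries (blue WT, orange cKO), and the horizontal lines and bars give the mean and SD of each group of 2. Ptch1 and Shh sit lower in both cKO libraries, Gli2, Sufu and Boc slightly higher, and Gli3 and Cdon are high in cKO 1 only.

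Ptch1, the receptor that restrains Smo and is itself a Hedgehog target, was read 788 and 746 times in the WT libraries and 545 and 579 times in the cKO libraries. The level was 42.9 ± 3.40 CPM in WT (SD, n = 2) and 31.1 ± 1.85 CPM in cKO (SD, n = 2). The groups did not overlap, and the gap between them was wider than that within either. The log2 fold change was -0.46 (standard error 0.17, unadjusted p = 0.0264, edgeR quasi-likelihood test), that is 0.725 of the WT level, and a change of that size or larger in either direction was seen in 10.6% of all genes tested. Leaving out each library in turn moved the log2 fold change between -0.53 and -0.38. The unadjusted p was 0.261 without WT 1 and 0.114 without WT 2, and 0.0338 and 0.0124 without cKO 1 and cKO 2. Relative to its partner Smo in the same library, Ptch1 gave 0.340 and 0.338 reads per Smo read in WT 1 and WT 2, and 0.248 and 0.242 in cKO 1 and cKO 2. The sum of the ventral markers was lowest in cKO 1 and was 1200 CPM in cKO 2, but 3 of the 13, Gad1, Gad2 and Isl1, lay lower in both cKO libraries, as Ptch1 did (Gad1 at 79.8 and 73.4 CPM in WT and 57.5 and 54.9 CPM in cKO). The choroid plexus and meningeal sums were highest in WT 1. The part of ventral tissue and that of choroid plexus and meninges in the Ptch1 difference were not tested.

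The gene (ENSMUSG00000021466) occupies chr13:63508328-63573598, minus strand, of GRCm38. RefSeq (GRCm38.p6) gave a promoter window for 7 of the 10 members. None was at hand for Shh, Boc and the target Gli1, so the motif search below did not cover them. The start site used for Cdon lies 30948 bases inside the gene as listed. The stretch of 250 bases before the RefSeq start site is shown for the Hedgehog targets Ptch1 and Hhip because these genes code for the feedback inhibitors, of which Ptch1 lay apart between the genotypes and Hhip did not. For Ptch1 this is chr13:63565736-63565985 on the minus strand, 7863 bases inside the gene as listed and in no annotated exon of it, and the first bases after this start were found in 1 of its 10 GENCODE transcripts. For Hhip it is chr8:80058009-80058258 on the minus strand, just outside the gene. The sequences are given 5′ to 3′ with GC boxes (GGGCGG or its reverse complement CCGCCC) in capitals.
Ptch1: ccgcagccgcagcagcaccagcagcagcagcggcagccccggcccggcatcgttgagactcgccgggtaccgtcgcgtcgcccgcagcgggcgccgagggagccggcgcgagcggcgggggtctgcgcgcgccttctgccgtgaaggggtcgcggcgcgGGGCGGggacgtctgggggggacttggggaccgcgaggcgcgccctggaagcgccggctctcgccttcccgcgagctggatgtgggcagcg
Hhip: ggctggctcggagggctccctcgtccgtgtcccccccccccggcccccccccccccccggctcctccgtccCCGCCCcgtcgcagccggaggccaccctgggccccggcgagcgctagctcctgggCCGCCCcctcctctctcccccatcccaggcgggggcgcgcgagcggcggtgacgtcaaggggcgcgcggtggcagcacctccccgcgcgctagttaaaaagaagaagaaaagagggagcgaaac
The Ptch1 stretch has a GC content of 78.4% with 41 CpG sites and the Hhip stretch 76.0% with 28. The Gli consensus GACCACCCA, or TGGGTGGTC on the other strand, was in 0 of the 7 member windows (250 bases before to 50 after the start) and in 0.253% of all 32851 windows. The GC box, searched for after the Gli consensus had given no match, was in 5 of the 7 (Ptch1, Hhip, Gli2, Gli3 and Sufu) and in 35.7% of all windows.

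Shh, the ligand (ENSMUSG00000002633, chr5:28456815-28467256, minus strand), gave few reads. There were 51 for WT 1, 34 for WT 2, 7 for cKO 1 and 27 for cKO 2. Exact Poisson 95% intervals, which cover counting error only, were 38.0 to 67.1, 23.5 to 47.5, 2.81 to 14.4 and 17.8 to 39.3 reads. cKO 1 stood far below the rest, and cKO 2 overlapped WT 2 within counting error. The level was 2.39 ± 0.768 CPM in WT and 0.947 ± 0.798 CPM in cKO (SD, n = 2 each). The log2 fold change of -1.33 (standard error 0.62, unadjusted p = 0.0638, edgeR quasi-likelihood test) became -0.65 without cKO 1 (unadjusted p = 0.266) and -2.61 without cKO 2 (unadjusted p = 0.00541), so the size of the difference was set largely by cKO 1. It was -0.96 without WT 1 and -1.62 without WT 2. With the replicate number as a block the log2 fold change was -1.44 (unadjusted p = 0.0162), which meets the study's thresholds.

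The low Shh count of cKO 1 stood beside low counts of ventral genes in that library. Nkx2-1, a transcription factor of the ventral telencephalon that Shh induces, had 1407 and 1035 reads in WT and 262 in cKO 1, but 1166 in cKO 2. Olig2, another such factor, had 579, 484, 316 and 664 reads in WT 1, WT 2, cKO 1 and cKO 2. In all, 11 of the 13 ventral telencephalon markers, a list that also holds Nkx2-1, were lowest in cKO 1, and their median level there was 0.710 of the mean over the libraries, against 1.04 to 1.17 in the others. Gad1, Gad2 and Isl1 lay lower in both cKO libraries than in both WT libraries, with log2 fold changes of -0.45, -0.24 and -0.32. Per read of Nkx2-1, Shh gave 0.0362 and 0.0329 reads (WT 1, WT 2) against 0.0267 and 0.0232 (cKO 1, cKO 2). How far the amount of ventral tissue sets the Shh count was not tested. Exons of Shh also share 446 bases with 9530036O11Rik and 361 with Gm26894 on the other strand, and reads of these cannot be separated from those of Shh without knowing how strand was treated.

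**Figure D2:**
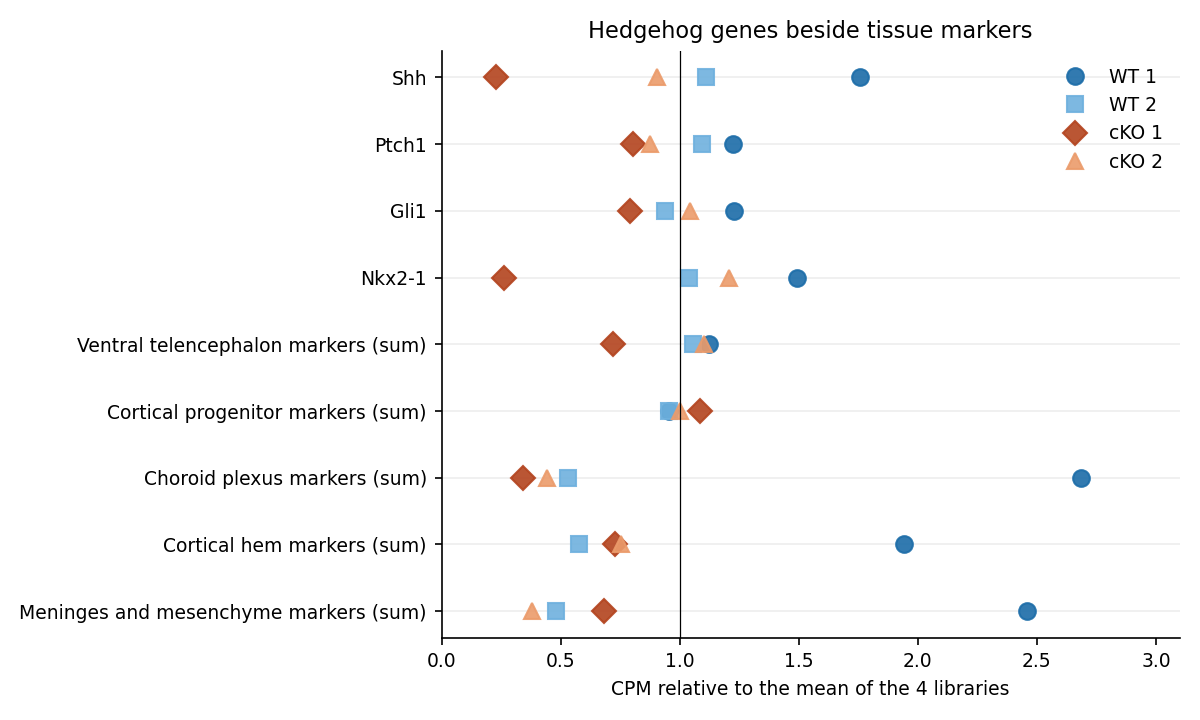
CPM of Shh, Ptch1, Gli1 and Nkx2-1, and summed CPM of 5 marker lists, in each library relative to the mean of the 4 libraries. Shh and Nkx2-1 are lowest in cKO 1 (0.230 and 0.264), as is the ventral sum (0.718), Ptch1 is low in cKO 1 and in cKO 2 (0.805 and 0.876), and the choroid plexus, hem and meningeal sums are highest in WT 1.

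The other targets did not separate the genotypes. Gli1, the target that also serves as an activator (ENSMUSG00000025407, chr10:127329882-127341974, minus strand), had 195 and 158 reads in WT and 132 and 170 in cKO. The groups overlapped, since cKO 2 exceeded WT 2. The level was 9.90 ± 1.86 CPM in WT and 8.36 ± 1.63 CPM in cKO (SD, n = 2 each). The difference of -0.24 on the log2 scale (standard error 0.27) ran from -0.44 to -0.04 with 1 library left out. Of its exon bases, 265 are shared with Gm47200 and 62 with Arhgap9 on the other strand. Hhip, the membrane protein that traps the ligand (ENSMUSG00000064325, chr8:79965851-80058006, minus strand), was barely read, with 28, 20, 23 and 16 reads in WT 1, WT 2, cKO 1 and cKO 2. The groups overlapped. On the log2 scale cKO differed by -0.32 (standard error 0.47). The ratio of cKO to WT reads had a 95% interval (Clopper-Pearson, counting error only) from 0.513 to 1.25. That interval includes equal levels and leaves out the spread between libraries, so no difference in Hhip was detected.

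Smo, the signal transducer that Ptch1 holds back (ENSMUSG00000001761, chr6:29735503-29761365, plus strand), did not separate the groups. It had 2316 and 2205 reads in WT and 2198 and 2394 in cKO, with the lowest and the highest count both in cKO. On the log2 scale the genotypes differed by 0.01 (standard error 0.15). Sufu, the cytoplasmic inhibitor of the Gli proteins (ENSMUSG00000025231, chr19:46396896-46488804, plus strand), was slightly higher in both cKO libraries (98.4 and 94.1 CPM) than in both WT libraries (86.4 and 90.0 CPM), a log2 fold change of 0.12 (standard error 0.14, unadjusted p = 0.404, edgeR). Boc, a co-receptor that presents the ligand (ENSMUSG00000022687, chr16:44485049-44558897, minus strand), stood at 93.7 and 96.0 CPM in WT and 111 and 108 CPM in cKO. The groups did not overlap, and the difference of 0.21 on the log2 scale (standard error 0.14, unadjusted p = 0.179, edgeR) stayed between 0.19 and 0.24 when any library was left out.

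Cdon, the related co-receptor (ENSMUSG00000038119, chr9:35421128-35507652, plus strand), was the most abundant member and varied more between the cKO libraries than between the genotypes. WT 1 and WT 2 had 4486 and 4584 reads, while cKO 1 had 6380 and cKO 2 had 4254. Its level was 1.46 times as high in cKO 1 as in cKO 2 (Clopper-Pearson 95% interval 1.41 to 1.52, counting error only), and a gap of this size between the cKO libraries was seen in 9.29% of the 1571 genes within 2-fold of its mean level. The log2 fold change of cKO over WT was 0.21 (standard error 0.20), and it was -0.09 without cKO 1 and 0.47 without cKO 2. Gli3, the main repressor (ENSMUSG00000021318, chr13:15463235-15730026, plus strand), followed the same course, with 2066 and 2446 reads in WT, 3046 in cKO 1 and 2060 in cKO 2. It was 1.44 times as high in cKO 1 as in cKO 2 (interval 1.37 to 1.53), and its log2 fold change of 0.16 (standard error 0.20) became -0.12 without cKO 1 and 0.42 without cKO 2. With the genes split into 4 equal classes by exon length, both belong to the longest (6521 bases or more). The median ratio of cKO 1 to cKO 2 was 1.15 in that class, against 0.866 in the shortest. Ptch1, Hhip, Sufu and Gli2 belong to the same class, with ratios of 0.919, 1.4, 1.05 and 1.08. The part of length in the difference of Cdon and Gli3 between the cKO libraries was not tested. Exons of Gli3 share 188 bases with Gm6556 on the other strand, and those of Hhip 175 with Gm27820.

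Gli2, the main activator (ENSMUSG00000048402, chr1:118834132-119053619, minus strand), varied less within the genotypes. It had 1230 and 1279 reads in WT and 1522 and 1381 in cKO, so both cKO libraries lay above both WT libraries (70.1 ± 0.905 against 80.2 ± 4.17 CPM, SD, n = 2 each). The log2 fold change was 0.19 (standard error 0.15, unadjusted p = 0.217, edgeR). Counted per kilobase of exon, the 3 Gli genes together gave mostly Gli3 (51.9% as a mean over the libraries, SD 3.85) and Gli2 (41.1%, SD 2.56). Gli1 made up 9% and 6.69% of WT 1 and WT 2, and 4.67% and 7.56% of cKO 1 and cKO 2. The share of Gli3 was 49.7%, 53.9%, 56.2% and 47.7% in the same order. Gli1 therefore took its smallest and Gli3 its largest share in cKO 1, and the genotypes overlapped in both shares.

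**Figure D3:**
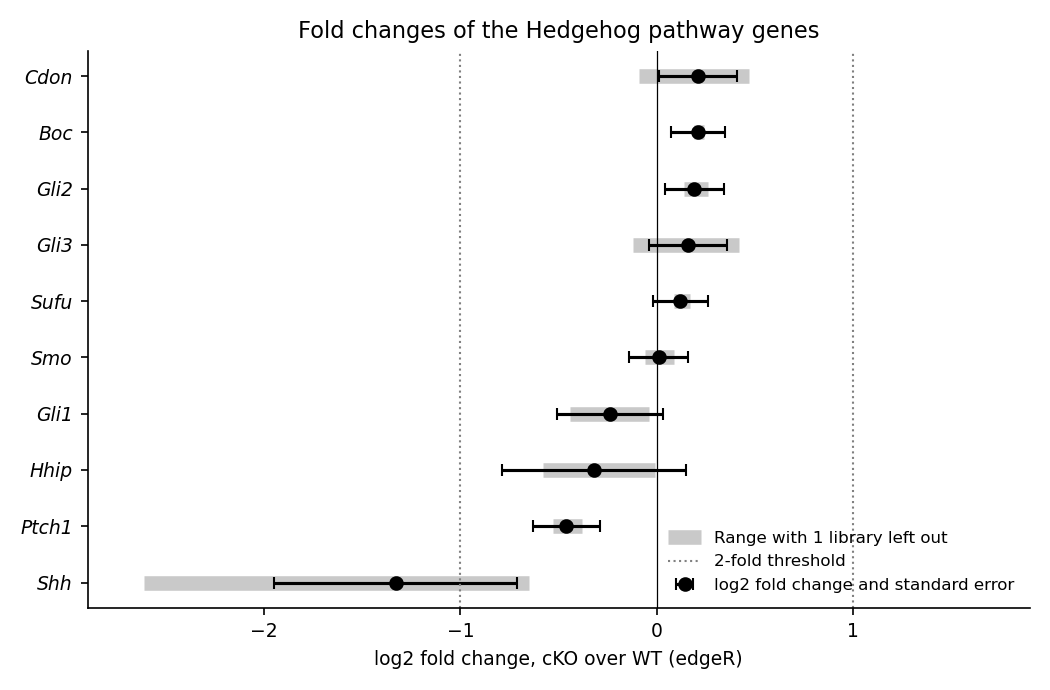
Log2 fold change of cKO over WT for each Hedgehog gene from edgeR (points) with its standard error (bars), the range of the value when 1 library was left out (grey), and the 2-fold threshold (dotted). Only the Shh point passes 2-fold, with the widest range (-2.61 to -0.65), and the ranges of Cdon, Gli3 and Smo cross 0.

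Per exon length, the members spanned a wide range of levels. Cdon came first with 35.4 CPM per kilobase as the mean of the 4 libraries. Boc (22.9) and Smo (22.6) followed and could not be ranked, since their libraries overlapped. Gli3 (13.9), Sufu (12) and Gli2 (10.9) formed the next step, in which each overlapped its neighbor across libraries, though Sufu was above Gli2 within each library. Ptch1 (2.61) and Gli1 (1.83) were several times lower and overlapped each other across libraries, though Ptch1 was above Gli1 within each library. Shh stood at 0.586 and Hhip at 0.134 CPM per kilobase, and these overlapped through the low Shh value of cKO 1. In every library the co-receptors, Smo, Sufu, Gli2 and Gli3 thus stood above Ptch1, Gli1, Hhip and Shh. The finer order rests on the union of exons as length. By the longest transcript, Smo (3779 instead of 5621 bases) and Sufu (4522 instead of 7691) are shorter, while Boc keeps 4451 bases. The places of Smo and Sufu relative to Cdon, Boc, Gli3 and Gli2 therefore depend on the length used.

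**Figure D4:**
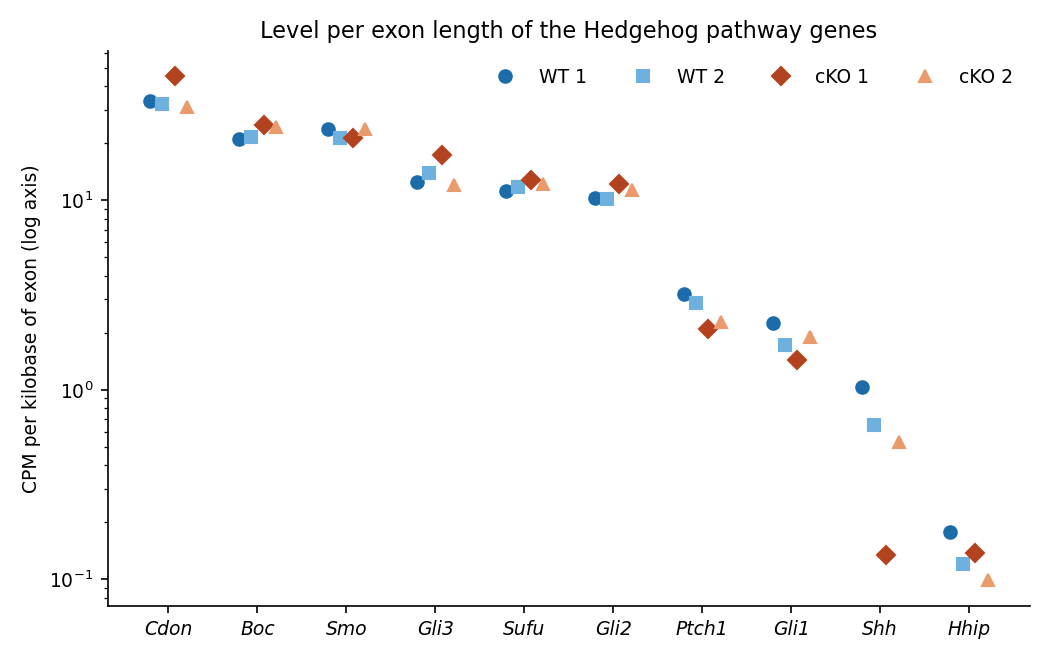
Level of each Hedgehog gene per exon length, in CPM per kilobase of annotated exon on a log axis, with 1 point per library and genes ordered by their mean. Cdon is highest (35.4) and Hhip lowest (0.134), and apart from Shh the 4 libraries of a gene sit close together on this scale.

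Beyond the 10 members, 41 further pathway symbols were followed, of which 40 were in the table and 32 passed the filter on low counts. None was called in either direction at the study's thresholds, against 0.811% of all genes, and none had an unadjusted p of at most 0.05. Their log2 fold changes ran from -0.95 to 0.23 with a median of -0.02. The groups did not overlap in 9 of the 32, with cKO lower in 5 and higher in 4, shares near those over all genes (10.8% lower and 11% higher).

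Among genes for ligands and their release, 5 of 7 were tested and 0 were called. Desert hedgehog (Dhh, 6 to 7 reads) and Indian hedgehog (Ihh, 4 to 12 reads) were near the limit of detection in every library. Disp1, which releases the lipid-bearing ligand from cells, had a log2 fold change of 0.10 (standard error 0.19), and Hhat, which attaches the palmitate, one of 0.23 (standard error 0.37). Scube1 and Scube3, secreted carriers related to Scube2, were at 0.06 and -0.03. Scube2, named after its values had been seen, showed the largest difference of the 32 genes, with 24 and 32 reads in WT and 13 and 16 in cKO (log2 fold change -0.95, standard error 0.46, unadjusted p = 0.0695, edgeR).

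The 3 other genes for receptors and co-receptors were all tested and 0 were called. Gas1, a co-receptor of Ptch1, was at 0.05 and Lrp2, which takes up Shh in the ventral forebrain, at -0.11 on the log2 scale.

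Of the regulators of Smo, 8 of 9 symbols were in the table, all were tested and 0 were called. Among the most abundant were Mgrn1 (log2 fold change -0.02), a ubiquitin ligase that lowers Smo at the surface, the kinase Grk2 (0.12) and the ciliary receptor Gpr161 (-0.06), which keeps the pathway off. The 10 genes for processing and transport of Gli proteins were all tested and 0 were called. Prkar1a (-0.18) codes for a regulatory subunit of protein kinase A, and Csnk1a1 (-0.13) and Gsk3b (-0.11) for kinases that mark Gli proteins for cleavage, as does Prkaca (-0.05) for its catalytic subunit.

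Of the 7 ventral genes that Hedgehog induces, Nkx2-1 (log2 fold change -0.79, standard error 0.56), Olig2 (-0.13) and Nkx6-2 (0.09) were tested and 0 were called. The value of Nkx2-1 was -2.24 without cKO 2 and -1.01 without WT 2, fits that leave a group with a single library. Nkx2-1 was called in those fits, but not in the fits without WT 1 or without cKO 1. With the replicate block its value was -1.10 (unadjusted p = 0.00205, edgeR, 0.679 after adjustment). That is past the study's thresholds, as were 208 of the 16145 genes tested with the block. Nkx2-2 and Nkx6-1 had 0 reads in cKO 1 and no more than 9 elsewhere, and Foxa1 and Foxa2 no more than 4 reads in any library. Of 5 other genes that respond to Gli factors, Ccnd1, which drives entry into the cell cycle, was at -0.26 (standard error 0.18), Mycn, a growth regulator, at 0.12 (standard error 0.14), and Foxf2, a mesenchymal target, at -0.34 (standard error 0.28). Foxf1 and Foxl1 had at most 7 reads and were not tested.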

How the data were processed

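Raw counts of reads per gene were deposited by the authors for 4 libraries. The submitters' processing notes name TopHat2 2.0.12, Bowtie2 2.2.3 and HTSeq 0.6.0 and the build mm9. The positions in the deposited table match GENCODE M21 (GRCm38) within 1 base at the start or end for 97.3% of 27232 genes, so they were read as GRCm38. Counting options, strand included, are not given in the sources used here. A table of cKO 1 and WT 1 alone had identical counts for all 10 members. The authors' columns of fold changes and p-values were not used. Of 27304 rows, 11 (0.0403%) were blank and left out.

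The 2 cKO libraries were compared with the 2 WT libraries by edgeR 4.0.16 (R 4.3.3, TMM scaling, filterByExpr, quasi-likelihood test, no covariate) over 16145 genes, with DESeq2 1.42.0 as an alternative, and the fit was checked on simulated counts. Levels per length divide CPM by the union of GENCODE exons. A count of 0 allows up to 3 reads, or 0.162 to 0.174 CPM. The members, lists and tests were chosen with earlier results of these data known. Genes named are the 10 members, STING, the tested genes called or most abundant (up to 4) in each pathway list, and the 3 profiles nearest to Shh and Gli1, of which a few are not reported here. Markers are summed by list (ventral telencephalon, choroid plexus, cortical hem, meninges, diencephalon, cortical progenitors, cortical neurons, endothelium, blood, proliferation). Intervals were computed with scipy 1.17.1.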

Additional observations from a re-analysis of the deposited data

How the results depend on the processing

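The number of members called (0) was the same with RLE or upper-quartile size factors, with DESeq2, with at least 10 counts required per library (which drops Shh), and with a 1.5-fold threshold or an unadjusted p of at most 0.01. It was 1 (Shh) with no filter beyond 1 count and 1 (Shh) with the replicate number as a block, and ran from 0 to 1 with 1 library left out. Over these alternatives the adjusted p ran from 0.574 to 1 for Shh and from 0.283 to 1 for Ptch1. Of the other pathway genes 1 (Nkx2-1) was called with the replicate block, and 0 to 1 with 1 library left out. The replicate numbers are shared by the groups but mark no stated litter or batch, and deviations of same-numbered libraries correlated at 0.108 across genes. Of 99 values of single members under an alternative, 87 kept their direction and their side of an unadjusted p of 0.05. With 1 library left out the log2 fold change ran from -0.06 to 0.09 for Smo, from -0.12 to 0.42 for Gli3 and from -0.09 to 0.47 for Cdon, and these were the members that changed sign. In those fits the lone library of a group is assumed to vary like the other group. Without division by length the mean shares of Gli reads were 4.29% for Gli1, 34.7% for Gli2 and 61.0% for Gli3, and with the longest transcript as length Gli2 was at 38.0%, as the lengths differ. Over all genes, 131 were called, against 405 with no filter, 72 with at least 10 counts per library, 208 with the replicate block, 65 with DESeq2 and 104 to 531 with 1 library left out. Genes at an adjusted p under 0.05 numbered 65 with no filter, 5 with the block and 0 to 116 with 1 library left out. The motif search gave 0 members with 8 letters of the Gli consensus too. Depth limits the precision of Shh and Hhip, the members with the fewest reads. For Shh the libraries within each group also differed beyond counting error. The ratio was 1.59 for WT 1 over WT 2 (Clopper-Pearson 95% interval 1.01 to 2.53) and 0.253 for cKO 1 over cKO 2 (0.0931 to 0.596).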

Other observations

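The genes whose levels over the 4 libraries were most like those of Shh and Gli1 were found by the smallest distance between centred log2(CPM + 1) profiles, outside the lists used here. For Shh these included Baiap3 (distance 0.153) and Dio3 (0.244) among 15858 genes with a mean of at least 10 reads. Baiap3 had 132 and 96 reads in WT and 44 and 89 in cKO, and Dio3 208 and 141 against 76 and 148, so each was lowest in cKO 1. For Gli1 they were Zim1 (0.0190), Hrk (0.0331) and Dennd1c (0.0417) among 11262 genes with a mean of at least 100 reads, each highest in WT 1 and lowest in cKO 1. These genes were chosen for their likeness to Shh or Gli1, so the shared order of libraries follows from the choice. The profiles rest on 4 libraries, and the distances are a description only.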
